A study of Mus musculus with 10 samples.

Results

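The fatty acid binding proteins (FABPs) examined here were Fabp1, Fabp2, Fabp4, Fabp5 and Fabp7, 5 of the 16647 genes counted in the livers. They were taken by name from the raw counts, and all 5 passed the minimum for testing. The question was whether the fall of Fabp2 mRNA after MI-883, known from an earlier look at the same livers, was shared by the other members. Humanized PXR-CAR-CYP3A4/3A7 male mice (model 11585, Taconic), 10 to 15 weeks old at the start, received a high-fat diet (HFD) for 8 weeks before and throughout 4 weeks of treatment. MI-883, a compound that activates the human xenobiotic receptor CAR and antagonizes human PXR, was given to 5 mice at 5 mg/kg by oral gavage 3 times per week, and 5 control mice received the DMSO, PEG300 and corn oil vehicle by the same route. Control mice thus carried the same human receptors and CYP3A genes and ate the same diet, and the Fabp genes remained those of the mouse. Each library was from the whole liver of another animal.

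FABPs are small cytosolic proteins that fold into a barrel around a fatty acid or another lipid and carry it between membranes and enzymes. They are named after the tissue where each was first abundant. FABP1 is the liver type and FABP2 the intestinal type, and both serve cells that move large amounts of dietary fat. FABP4 is the adipocyte type, which macrophages and some endothelial cells also make, FABP5 is the epidermal type, and FABP7 is the brain type, which Kupffer cells, the resident macrophages of the liver, also make.

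The 5 genes lie at separate places in the mouse genome (GRCm38), apart from Fabp4 and Fabp5. Fabp1 occupies 71199879 to 71205034 of chromosome 6, and Fabp7 lies at 57784923 to 57788450 of chromosome 10. Fabp2 lies at 122895072 to 122899506 of chromosome 3. Fabp5, at 10012585 to 10016610 of the same chromosome, is 187731 bases from Fabp4, at 10204342 to 10208616. Both belong to a cluster of 5 Fabp-type genes that runs from 10012585 to 10301515 and also holds Pmp2, Fabp9 and Fabp12.

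The promoter windows of the members, where RefSeq gave one (GRCm38.p6), are printed because Fabp1 and Fabp2 both had lower mRNA after MI-883 in every treated liver. Each window holds 250 bases before and 50 bases after the annotated gene start, on the plus strand. Capitals mark AGGTCA, the half-site that nuclear receptors such as PPARα and HNF4α recognize, here always as TGACCT on the opposite strand, and the TATAAA box. Windows were found for 3 members, and those of Fabp4 and Fabp5 were not analysed here.
Fabp1, chr6:71199629-71199928: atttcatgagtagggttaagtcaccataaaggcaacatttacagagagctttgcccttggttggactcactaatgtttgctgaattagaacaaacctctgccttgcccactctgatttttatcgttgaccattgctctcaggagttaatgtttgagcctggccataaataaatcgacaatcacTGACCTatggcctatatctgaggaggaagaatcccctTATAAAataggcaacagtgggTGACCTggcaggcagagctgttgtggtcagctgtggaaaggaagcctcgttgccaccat
Fabp2, chr3:122894822-122895121: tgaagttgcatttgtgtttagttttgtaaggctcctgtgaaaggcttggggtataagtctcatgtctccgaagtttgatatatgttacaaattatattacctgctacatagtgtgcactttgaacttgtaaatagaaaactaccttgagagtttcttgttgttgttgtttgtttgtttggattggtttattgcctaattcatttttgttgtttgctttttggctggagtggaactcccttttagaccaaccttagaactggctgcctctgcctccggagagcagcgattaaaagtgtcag
Fabp7, chr10:57784673-57784972: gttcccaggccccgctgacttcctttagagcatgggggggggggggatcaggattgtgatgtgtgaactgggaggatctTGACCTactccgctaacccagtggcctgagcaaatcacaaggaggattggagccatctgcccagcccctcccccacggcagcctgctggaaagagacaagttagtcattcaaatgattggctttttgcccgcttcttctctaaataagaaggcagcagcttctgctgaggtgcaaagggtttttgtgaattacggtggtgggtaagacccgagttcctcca

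The Fabp1 window held AGGTCA starting 67 and 9 bases before the gene start and TATAAA 30 bases before it. In the Fabp2 window none of the searched letters occurred. The Fabp7 window held AGGTCA 171 bases before the start. Both strands were searched for exact copies, so half-sites or repeats with a mismatched base were not looked for. AGGTCA occurred in 16.3% and TATAAA in 13.6% of 32851 mouse promoter windows of this length. Its direct repeats with 1 and 4 bases between the copies, each of which also counts as a single AGGTCA, were in no member window and in 0.0396% and 0.0152% of all windows. These matches describe the letters only.

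Libraries held between 23513665 and 36221514 counts. The control median was 31734138 and the MI-883 median 24581671. Levels are given as CPM, a gene's counts relative to its library's total on a common scale, after TMM, a factor that sets the bulk of genes equal between libraries. The 6 hepatocyte markers summed to between 75377 and 87346 CPM in control livers and between 65340 and 76624 CPM in MI-883 livers, with albumin (Alb) the most abundant.

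Fabp2 fell to 66.6% of its control level (95% interval 58.7 to 75.5%). Control livers 1 to 5 had 245, 226, 247, 249 and 223 CPM. MI-883 livers 1 to 5 had 182, 166, 161, 152 and 133 CPM. Every treated liver was below every control liver, and the means were 238 ± 12.6 and 159 ± 18.1 CPM (SD, n = 5 each). The log2 fold change was -0.59 (SE 0.0840) with an adjusted P of 0.0040 in edgeR's quasi-likelihood test. The rule that chose the gene knew of this fall, so these values are a description. Of 13219 genes tested, 1.03% were called in either direction, 0.764% higher and 0.265% lower. Among the 35 genes called lower, Fabp2 was number 9 by size of change, and 4 had a higher mean CPM. In whole liver, fewer cells of a type and less RNA per cell cannot be told apart.

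**Figure D1:**
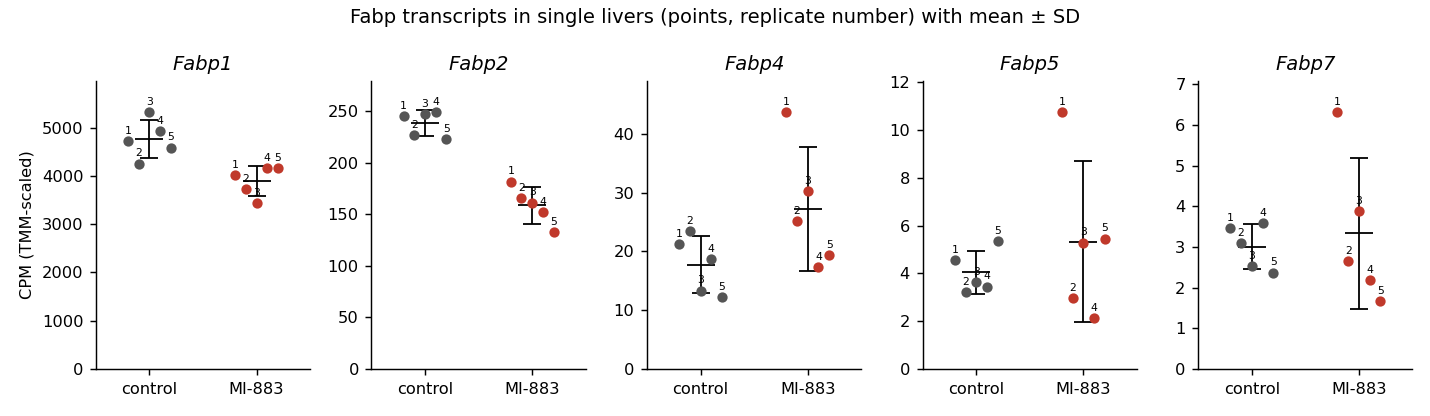
TMM-scaled CPM of each Fabp gene in 5 control (gray) and 5 MI-883 livers (red), with replicate numbers beside the points and the mean ± SD in black; each axis starts at 0. For Fabp1 and Fabp2 every treated liver is below every control liver, and for Fabp4, Fabp5 and Fabp7 the groups overlap.

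Fabp1, the liver-type member and by far the most abundant, was also lower in every treated liver, by a smaller proportion. Its control livers 1 to 5 had 4725, 4254, 5328, 4933 and 4589 CPM. The MI-883 livers had 4025, 3734, 3440, 4156 and 4164 CPM. The groups did not overlap, with the highest treated liver just under the lowest control. Means were 4766 ± 400 and 3904 ± 312 CPM (SD, n = 5 each), or 81.9% of control (95% interval 71.0 to 94.5%). The log2 fold change was -0.29 (SE 0.0955).

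Whether Fabp1 passed depended on the test. Permuting livers exactly, two-sided, gave P = 0.00794 before adjustment, the smallest that 5 against 5 livers allow. edgeR gave an adjusted P of 0.176 over all genes (unadjusted 0.0100), while the DESeq2 Wald test gave an adjusted P of 0.0177. DESeq2 called 3.5% of genes in either direction, 2.2% higher and 1.3% lower. The separation of the groups depended on the scale too: as a proportion of total counts, in CPM without TMM, control livers lay between 4290 and 5175 and treated livers between 3589 and 4308, so that the groups overlapped. Those of Fabp2 stayed apart on this scale, at 211 to 256 in control and 137 to 187 in MI-883 livers.

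Across the 5 members, edgeR called 1 lower, Fabp2, and DESeq2 called 2 lower, Fabp1 and Fabp2. The CPM of 2 members, Fabp1 and Fabp2, did not overlap between groups, both lower in MI-883. Fabp2 was chosen for its known fall, so its place in these counts was given beforehand. Fabp1 overlapped as a proportion of total counts. Among all genes tested, 3.98% did not overlap in either direction, with 2.05% higher and 1.93% lower after MI-883. The other 3 members had higher treated means with overlapping groups.

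Fabp4, the adipocyte and macrophage type, had the largest estimate among these and did not pass. Control livers 1 to 5 had 21.2, 23.4, 13.3, 18.7 and 12.2 CPM. MI-883 livers had 43.8, 25.2, 30.2, 17.3 and 19.4 CPM. Replicates 1 and 3 of the treated group were the highest of the 10 livers, while replicates 4 and 5 lay within the control range. Means were 17.8 ± 4.89 and 27.2 ± 10.6 CPM (SD, n = 5 each). The log2 fold change was 0.61 (95% interval 0.081 to 1.14), with an adjusted P of 0.257 in edgeR and 0.305 in DESeq2, and P = 0.103 in the exact permutation test. Without MI-883 replicate 1 it was 0.37, and with a surrogate variable 0.32.

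Fabp5, the epidermal type, was low and variable after MI-883. Control livers 1 to 5 had 4.55, 3.22, 3.64, 3.45 and 5.35 CPM. MI-883 livers had 10.8, 2.96, 5.29, 2.13 and 5.46 CPM. Replicate 1 of the treated group was the highest and replicate 4 the lowest of all livers. The log2 fold change was 0.41 (95% interval -0.33 to 1.16, adjusted P = 0.593 in edgeR). It was -0.013 without MI-883 replicate 1. Of the 100-base stretches of Fabp5 transcripts, 2.19% also occurred in the genes Gm14328 or Gm6166, neither of which was listed in the counts. No stretch of the other 4 members was shared with another gene.

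Fabp7, the brain type, had between 47 and 185 counts per liver. Control livers 1 to 5 had 3.46, 3.09, 2.53, 3.59 and 2.37 CPM. MI-883 livers had 6.32, 2.66, 3.89, 2.18 and 1.67 CPM. The treated livers thus held both the highest and the lowest values. The log2 fold change was 0.15 (95% interval -0.50 to 0.81, adjusted P = 0.843 in edgeR). It was -0.22 without MI-883 replicate 1 and 0.32 without MI-883 replicate 5. The intervals of Fabp1 (-0.49 to -0.081), Fabp4, Fabp5 and Fabp7 lay above -0.59, the estimate for Fabp2. That estimate has its own interval of -0.77 to -0.40, and Fabp2 was chosen for its known fall, which favors such a difference. The intervals of Fabp1 and Fabp7 overlapped that of Fabp2. Within the intervals of Fabp5 and Fabp7 both a lower and a higher level were possible.

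**Figure D2:**
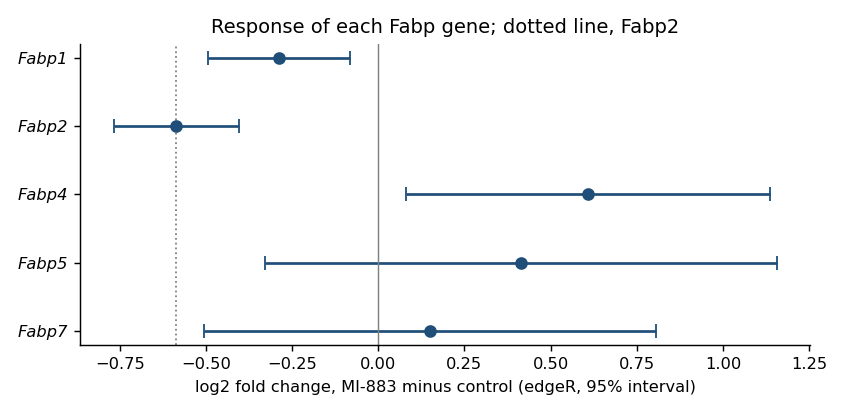
Log2 fold change of each Fabp gene (MI-883 minus control, 5 livers each, edgeR) with its 95% interval; the solid line is 0 and the dotted line the Fabp2 estimate of -0.59. Fabp1 and Fabp2 lie below 0, Fabp4 above, and the intervals of Fabp5 and Fabp7 span 0.

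The spread between livers differed among members. In control livers the coefficient of variation was 8.39% for Fabp1 and 5.28% for Fabp2, against 27.5% for Fabp4, 22.0% for Fabp5 and 18.1% for Fabp7. In MI-883 livers it was 7.99% for Fabp1 and 11.4% for Fabp2, but 38.9, 63.3 and 55.6% for Fabp4, Fabp5 and Fabp7. MI-883 replicate 1 was the highest treated liver for all members except Fabp1.

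Each other member was also set against Fabp2 within a liver, as a ratio that no library scaling can change. Every ratio holds the known fall of Fabp2 in its denominator, so these values are a description without a test. Fabp1 counts were 20.01 ± 1.09 times those of Fabp2 in control livers, between 18.8 and 21.5. They were 25.0 ± 4.31 times those of Fabp2 after MI-883, between 21.3 and 31.4 (SD, n = 5 each). The groups overlapped slightly, and treated replicates 4 and 5 had the highest ratios. The log2 difference was 0.30 (SE 0.112).

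The Fabp4 to Fabp2 ratio was 0.0747 ± 0.0212 in control livers and 0.168 ± 0.0484 after MI-883 (SD, n = 5 each). All 5 treated livers, at 0.114 to 0.241, were above all control livers, at 0.0539 to 0.104. The log2 difference was 1.17 (SE 0.259), to which the fold changes of 0.61 for Fabp4 and -0.59 for Fabp2 both contributed. The ratios of Fabp5 and Fabp7 to Fabp2 differed by 0.79 (SE 0.412) and 0.60 (SE 0.291) on the log2 scale, and the groups overlapped for both.

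**Figure D3:**
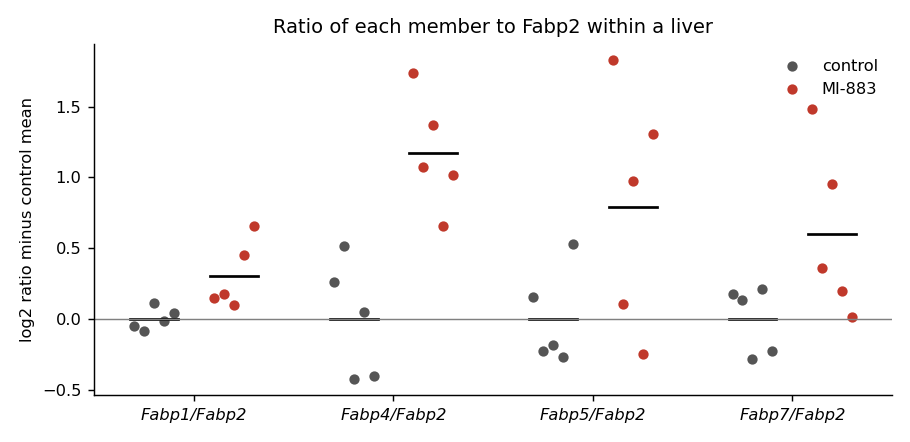
Log2 ratio of each member to Fabp2 within a liver, minus the control mean, in control (gray) and MI-883 livers (red); bars are group means of 5 livers. The treated means lie 0.30, 1.17, 0.79 and 0.60 above control for Fabp1, Fabp4, Fabp5 and Fabp7, and for Fabp4 no treated liver is within the control range.

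Levels of different members were set side by side only per transcript length, as TPM (counts divided by exon length and scaled to the same sum in every liver). Fabp1 had 20871 ± 1588 TPM in control livers (SD, n = 5), and only 4 genes had a higher control mean. Fabp2 followed with 598 ± 42.8, then Fabp4 with 9.67 ± 3.03, Fabp7 with 5.85 ± 1.18 and Fabp5 with 2.75 ± 0.633 TPM. After MI-883 the order was the same, with 17969 ± 1474, 419 ± 55.5, 15.5 ± 6.38, 6.88 ± 3.94 and 3.87 ± 2.47 TPM. In both groups the livers' ranges of Fabp1, Fabp2 and Fabp4 were apart. Those of Fabp4 and Fabp7 overlapped in both groups, and those of Fabp7 and Fabp5 in treated livers. These levels depended on the length used. The principal transcript of each gene was tried in place of all exons, a choice made after seeing the data. With it, the order of Fabp5 and Fabp7 changed, with control shares of the summed Fabp level of 0.0463% and 0.0424%. The length of Fabp4 was 4489 bases with all exons and 896 with the principal transcript. Its control share was 0.0453% with all exons and 0.226% with the principal transcript.

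Fabp1 accounted for 2.09% of all TPM in control and 1.80% in MI-883 livers. On this scale its groups overlapped, with control livers between 19357 and 22815 TPM and treated livers between 15979 and 20025 TPM. The summed level of the 5 members was 21488 ± 1620 TPM in control and 18414 ± 1469 TPM in MI-883 livers, with groups overlapping. Nearly all of this sum was Fabp1. It also includes the known fall of Fabp2 and is given without a test.

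Fabp2 made up 2.79 ± 0.145% of the summed Fabp TPM in control livers and 2.29 ± 0.352% after MI-883 (SD, n = 5 each), with groups overlapping at 2.59 to 2.96% and 1.79 to 2.61%. The share of Fabp1 was 97.1% in control and 97.6% in MI-883 livers, a difference of 0.44 percentage points, which was 0.265 with principal transcripts. Both shares include the known fall of Fabp2 and are given without a test.

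The 6 hepatocyte markers, which mark the cells that make FABP1 in liver, all had lower treated means, by a median log2 change of -0.23, and none was called by edgeR or DESeq2. The median over all 13219 genes was 0.0045. Alb changed by -0.16 (adjusted P = 0.514 in edgeR), transferrin (Trf) by -0.12 and fibrinogen beta (Fgb) by -0.38 on the log2 scale. Relative to the summed markers within a liver, a scale added after seeing the data, Fabp1 was 5.99 ± 0.651% in control and 5.51 ± 0.458% in MI-883 livers (SD, n = 5 each). This log2 difference of -0.12 (SE 0.0877) had an exact permutation P of 0.230, with overlapping groups. Alb alone made up most of the summed markers, so this scale does not measure the number of hepatocytes. Fabp2 was 0.299 ± 0.0276% and 0.224 ± 0.0261%, a log2 difference of -0.42 (SE 0.0974), lower in all 5 treated livers, given as a description since this fall was known.

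Markers of other cells that make FABPs were read in the same livers. Markers of the intestinal epithelium, whose enterocytes are the main source of FABP2, were at or near 0. The homeobox factor Cdx2 and the disaccharidase Sis had 0 to 1 counts per liver and Lct 0 to 3. Muc2 had 1 to 8 and Vil1 0 to 11 counts, while Cdx1 and Alpi had no row. Fabp2 had between 3490 and 8774 counts in these livers. Of 7 adipocyte markers, adiponectin (Adipoq) had 0 to 4, Plin1 0 to 2 and Retn 2 to 9 counts, and Lep had no row. Adipsin (Cfd), a complement protease, fell from 12.3 ± 4.06 to 2.57 ± 1.24 CPM (log2 fold change -2.25, SE 0.316, adjusted P = 0.0035 in edgeR). The part of adipocytes in the Fabp4 estimate was not tested. The lipid droplet protein Cidea had 68.1 ± 11.7 and 65.2 ± 19.0 CPM (adjusted P = 0.902 in edgeR). DESeq2 also called Adrb3, a marker named here after its values were seen, with 3.14 ± 0.566 and 1.85 ± 0.505 CPM (adjusted P = 0.0214).

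Markers of macrophages and stellate cells varied widely among livers, and their part in the Fabp4, Fabp5 and Fabp7 estimates was not tested. The 8 Kupffer cell and macrophage markers summed to between 227 and 331 CPM in control and between 186 and 409 CPM in MI-883 livers, with replicate 1 the highest. None was called. The most abundant were Cd5l, at 93.2 ± 23.3 and 95.9 ± 43.0 CPM, and Clec4f, at 79.8 ± 13.2 and 70.5 ± 16.3 CPM, and Marco had the lowest estimate (log2 fold change -0.88, adjusted P = 0.544 in edgeR).

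All 5 markers of lipid-associated macrophages had higher treated means and none was called. Their sum lay between 14.7 and 54.2 CPM in control livers and between 21.5 and 90.0 CPM in MI-883 livers. MI-883 replicates 1 and 3, the livers highest in Fabp4, had 90.0 and 87.4 CPM. Gpnmb, a glycoprotein of lipid-laden macrophages, had the largest estimate at 1.57 (SE 0.791, adjusted P = 0.356 in edgeR).

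Of 6 stellate cell markers, 5 had higher treated means and none was called by edgeR. Their sum was between 229 and 370 CPM in control and between 267 and 445 CPM in MI-883 livers. The collagen genes Col1a1 and Col3a1 had log2 fold changes of 0.89 and 0.82 (adjusted P = 0.263 and 0.185 in edgeR). Among 8 endothelial markers, 7 had higher treated means and the receptor Tie1 was called by edgeR, at 13.2 ± 1.24 and 20.97 ± 2.64 CPM (log2 fold change 0.67, adjusted P = 0.0054 in edgeR). DESeq2 also called the junction gene Cdh5, named after its values were seen (0.53, adjusted P = 0.0223). The endothelial sum lay between 133 and 176 CPM in control and between 152 and 205 CPM in treated livers.

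Within groups, livers with more Fabp4 also had more stellate cell and lipid-associated macrophage marker RNA. Deviations from the group means were compared over the 10 livers for 50 pairs of a member and a marker sum. Fabp4 and the stellate cell markers had r = 0.93 and rho = 0.94 (adjusted exact permutation P = 0.0208 and 0.0301), and r = 0.90 without the 2 livers farthest from the median. Fabp4 and the lipid-associated macrophage markers had r = 0.91 and rho = 0.90 (adjusted exact permutation P = 0.0544 and 0.0301), and r = 0.89 without the 2 farthest livers. Fabp7 and the Kupffer cell markers had r = 0.93 and rho = 0.88 (adjusted exact permutation P = 0.0208 and 0.0301), and r = 0.74 without the 2 farthest livers. No other pair had an adjusted P under 0.05. Pairs share libraries, and the marker lists were drawn up with earlier results known.

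**Figure D4:**
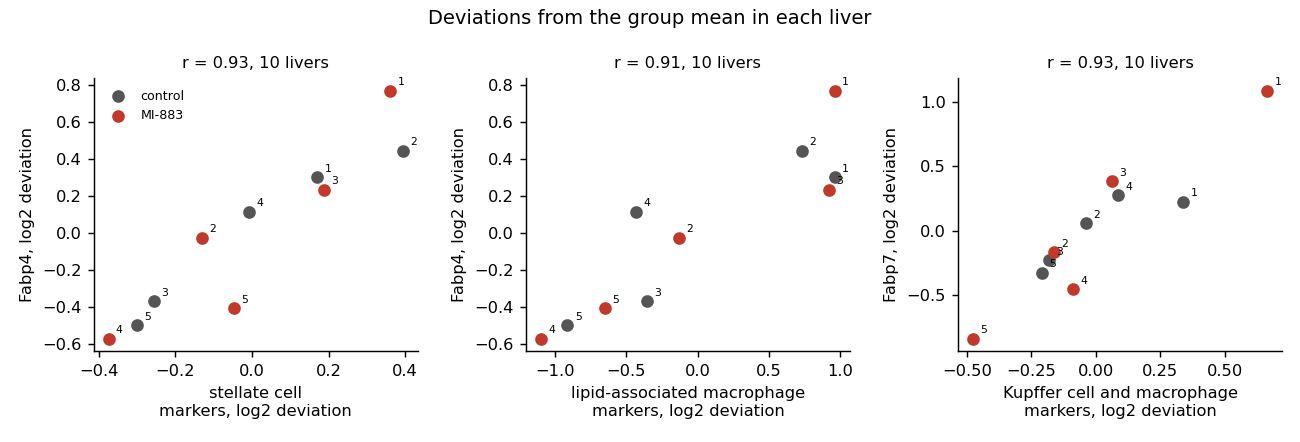
Log2 deviation from the group mean of Fabp4 or Fabp7 (vertical) against that of a summed marker list (horizontal) in 5 control (gray) and 5 MI-883 livers (red), with replicate numbers. Points rise along each panel, with r = 0.93, 0.91 and 0.93 over 10 livers, and MI-883 replicate 1 is at or near the upper right of each.

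Members themselves varied together only in part. Over 10 pairs of members, Fabp4 and Fabp7 had r = 0.88 and rho = 0.85 (adjusted exact permutation P = 0.0208 and 0.0569), and r = 0.86 without the 2 farthest livers. Fabp2 and Fabp7 had r = 0.84 and rho = 0.66 (adjusted exact permutation P = 0.0726 and 0.442), and r = 0.47 without those 2 livers. Fabp1 and Fabp2, the members lower after MI-883, had r = -0.0065 and rho = 0.0061 (adjusted exact permutation P = 0.987 and 1), and r = 0.26 without the 2 farthest livers.

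Several other genes of the same protein family were at or near 0 in liver. Fabp3, the heart type, had 0 to 7 counts per liver, and Fabp6, the bile acid carrier of the ileum, had 0 to 3. Fabp12, Pmp2, Crabp1, Crabp2 and Rbp7 had at most 4 counts in any liver. Fabp9 and Rbp2 had no row.

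None of the 8 tested genes of fatty acid uptake was called, and their median log2 fold change was 0.031. The transport protein and acyl-CoA synthetase Slc27a2 had 1832 ± 150 and 1783 ± 200 CPM, and Slc27a5, which also conjugates bile acids to CoA, had 1187 ± 170 and 1107 ± 179 CPM (SD, n = 5 each). Caveolin Cav1 had the largest estimate, 0.55 (adjusted P = 0.345 in edgeR). Cd36, the fatty acid translocase, named here after its values were seen, had 195 ± 48.8 and 211 ± 43.9 CPM.

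Of 17 tested genes that activate fatty acids, cleave acyl-CoA or carry it, edgeR called none and DESeq2 called 1. This gene was Scp2, a peroxisomal thiolase and lipid carrier, with 5131 ± 176 and 4524 ± 136 CPM, lower in all treated livers (log2 fold change -0.18, adjusted P = 0.291 in edgeR and 0.0049 in DESeq2). The synthetase Acsl1 had 1044 ± 188 and 1269 ± 269 CPM (log2 fold change 0.28, adjusted P = 0.413 in edgeR). Acot3, an acyl-CoA thioesterase, had the largest estimate, -0.60 (SE 0.444, adjusted P = 0.543 in edgeR). The list median was -0.081 on the log2 scale, and 11 of its genes had lower and 6 had higher treated means.

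A list of regulators of Fabp genes held 18 transcription factors and cofactors, with a median log2 fold change of -0.067. Of these, edgeR called none and DESeq2 called 1. The gene called by DESeq2 was Cebpa, a hepatocyte and adipocyte factor, with 644 ± 37.4 and 524 ± 55.2 CPM (log2 fold change -0.30, adjusted P = 0.133 in edgeR and 0.0151 in DESeq2). Hnf4a, a regulator of the hepatocyte program, had 430 ± 60.1 and 429 ± 69.4 CPM (adjusted P = 0.993 in edgeR). Foxa2 had the largest estimate, -0.38 (adjusted P = 0.303 in edgeR). Ppara, the fatty acid sensor that activates Fabp1, named here after its values were seen, had 372 ± 34.5 and 352 ± 58.8 CPM.

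Fabp1 is a known target of PPARα, and 23 other targets were read beside it. Of these, 1 was called, higher, and 15 had lower treated means, with a median log2 fold change of -0.045. The called gene was Pdk4, the kinase that shuts off pyruvate oxidation, with 13.7 ± 4.72 and 33.3 ± 6.76 CPM (log2 fold change 1.27, SE 0.230, adjusted P = 0.0198 in edgeR), higher in all 5 treated livers. It was not called without control replicate 5 or without MI-883 replicate 5, where the list had 0 called genes. The cytochromes Cyp4a14 and Cyp4a10, which hydroxylate fatty acids, had log2 fold changes of -1.20 and -0.60 and did not pass (adjusted P = 0.208 and 0.267 in edgeR). They were named after their values were seen, and reads of these close paralogs may be hard to tell apart.

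None of 10 genes of triglyceride-rich lipoprotein assembly was called, with a median of 0.10. Apob, the structural protein of these particles, had a log2 fold change of -0.05, Apoa4 of 0.29 and the acyltransferase Mogat1 of 0.55 (adjusted P = 0.832, 0.529 and 0.215 in edgeR). Since some Fabp genes follow the daily cycle, 15 clock genes were tested, and none was called. Their median was -0.13, with Dbp at -0.31 and Tef at -0.14 (adjusted P = 0.167 and 0.341 in edgeR). The hour of sampling is not given in the labels.

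**Figure D5:**
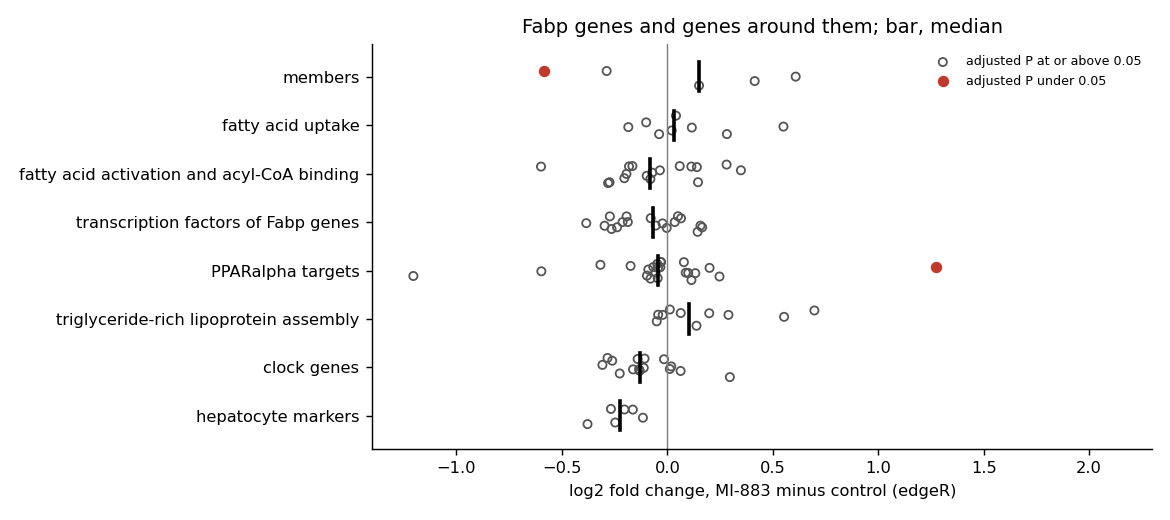
Log2 fold change (MI-883 minus control, edgeR, 5 livers each) of every tested gene in the Fabp family and in the lists around it, with the list median as a black bar and genes with an adjusted P under 0.05 in red. Of the genes shown only Fabp2, at -0.59, and Pdk4, at 1.27, passed.

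No call was made among the genes beside Fabp2 on chromosome 3. Of 22 annotated genes that start within 500000 bases, 8 besides Fabp2 were tested. Their log2 fold changes ran from -0.28 to 0.32, with a median of 0.0090, and the lowest adjusted P was 0.206, for the vesicle coat gene Sec24d, at 81.8 ± 11.8 and 102 ± 13.6 CPM. A long noncoding RNA, 4933405D12Rik (122882592 to 122924116), overlaps Fabp2 and was not listed in the counts. Since the strand setting of the counting is not given in the sources used here, reads from both genes cannot be told apart. No other member overlaps an annotated gene.

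Called genes closest to Fabp2 in fold change, among those with a mean CPM within a factor of 2 of it, were S100a1, Amdhd1 and Hal. The calcium-binding S100a1 had a log2 fold change of -0.54 (adjusted P = 0.0205 in edgeR). Histidine ammonia-lyase (Hal), the first enzyme of histidine breakdown, and Amdhd1, a later enzyme of this route, had log2 fold changes of -0.46 and -0.50 (adjusted P = 0.0264 and 0.0014 in edgeR). These genes were picked for their fold change, which is therefore no finding.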

How the data were processed

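Total RNA of 5 control and 5 MI-883 livers was sequenced as paired-end directional libraries. The authors trimmed reads (fastp 0.23.0 in the submitters' processing notes), aligned them to mm10 (STAR) and made gene counts (featureCounts). Annotation, strand setting and the other versions are not given in the sources used here. The deposited values are raw counts per Entrez gene, whole numbers without normalization. Of 16647 genes, 16644 matched a RefSeq symbol and 3 did not.

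A summed minimum of 60 counts over the 10 livers left 13219 genes for testing. Groups were taken from the labels. The quasi-likelihood test of edgeR 4.0.16 (R 4.3.3) used TMM scaling and treatment alone, and P values were adjusted over all genes by Benjamini-Hochberg at 0.05. This test was checked on simulated data. CPM used TMM-scaled library sizes. Exact two-sided permutation tests of log2 values can give no P under 0.00794. For correlations, livers were permuted within groups. TPM were computed from counts and the exon length of GENCODE M21 genes, available for 16576 genes.

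The members and gene lists were chosen with earlier results of these data known. Exact tests of ratios to Fabp2 and of shares had been planned, but their P values are not given, since the fall of Fabp2 was known. Named genes are all members, and from each list those called, the 2 most abundant and the 1 with the largest change at a mean of at least 1 CPM. They also include the 3 genes most like each member within groups, 3 called genes near Fabp2 in fold change, and neighbors. Other genes are marked as named afterwards. Some genes under this rule are not reported here. Alternatives were the DESeq2 1.42.0 Wald test, its size factors or total counts, 3 other filters, a replicate block, a surrogate variable (sva 3.50.0), other transcript lengths, 0.5 CPM added in ratios, and leaving out each liver. The scale of hepatocyte markers and the principal transcript were added after seeing the data.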

Additional observations from a re-analysis of the deposited data

Results flagged for a closer look

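Of 38 groups of 5 livers looked at for a single liver far from the rest, 1 stood out, and 1.9 would by chance. It was the summed level of the 8 endothelial markers, which was 132.8 CPM in control replicate 1, while the nearest of the other control livers had 168 CPM. No member had such a liver in either group.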

How the results depend on the processing

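Fabp2 kept its direction in every setting tried and its call in every edgeR and DESeq2 fit. Its log2 fold change lay between -0.64 and -0.53 on leaving out a liver and between -0.62 and -0.54 in the other fits. Relative to the hepatocyte markers, a scale without calls, the log2 difference was -0.42. Since the fall of Fabp2 was known beforehand, these values are a description. Fabp1 stayed lower but passed only in the DESeq2 Wald test (-0.29, adjusted P = 0.0177). Fabp4 stayed higher and never passed, at 0.37 to 0.73 on leaving out a liver (lowest without MI-883 replicate 1) and 0.32 with a surrogate variable. Fabp5 ran from -0.013 to 0.61 on leaving out a liver and Fabp7 from -0.22 to 0.32, both reversed without MI-883 replicate 1, and Fabp7 was -0.17 with a surrogate variable. The cause was not tested.

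The 136 calls over all genes became 463 with DESeq2, 231 with a surrogate variable and 89 with the replicate block. On leaving out a liver they ran from 62 (without MI-883 replicate 5) to 208 (without control replicate 1). Other scalings and filters gave 130 to 144 calls. Total counts gave 110 higher and 29 lower calls against 101 and 35, and moved the median of all genes to 0.049. The cause was not tested.

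Replicate numbers do not pair the livers: only 1 of 5 same-numbered pairs had a correlation above 0.1 (0.36), and the lowest was -0.121. Under the pairing by number, no member's call in edgeR changed. The log2 differences in the ratios of Fabp1 and Fabp4 to Fabp2, 0.30 and 1.17, cannot change when equal groups are paired. No control liver correlated best with the treated liver of its number. Pdk4 was not called under the block, which left 0 called PPARα targets.

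The Fabp1 to Fabp2 ratio ran from 0.22 to 0.36 (log2) on leaving out a liver, that of Fabp4 from 1.03 to 1.30 and that of Fabp7 from 0.38 to 0.75. With 0.5 CPM added, the Fabp7 ratio was 0.61. The difference in Fabp1 share was 0.31 to 0.53 percentage points without a liver, 0.436 with the longest transcript and 0.265 with the principal transcript. Fabp5 and Fabp7 had the fewest counts of the members, 49 to 315 and 47 to 185 per liver.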

Other observations

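Genes whose levels followed each member most closely among livers of a group were ranked by r over 10 livers among 11613 genes of at least 1 CPM. This ranking is a description, and high values occur by selection. Nearest to Fabp1 were the major urinary protein gene Mup18 (r = 0.89), Ccn4 (0.88) and Zfpl1 (0.87). Ccn4 had a log2 fold change of 1.18 between groups (adjusted P = 0.0197 in edgeR), while that of Fabp1 was -0.29.

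Fabp2 was followed most closely by Ankra2 (r = 0.94), Ccdc127 (0.94) and Atp6v1g1 (0.92). None of these was called between groups. Fabp4 was followed by the complement receptor gene C5ar2 (r = 0.97), Cmtm7 (0.96) and Kctd12 (0.96), and Fabp7 by Wfdc17, the cathepsin gene Ctsb and Pacc1 (0.96 each). Fabp5 was followed by Tra2b (0.92), Jrk (0.91) and Tmem159 (0.91).

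The cholangiocyte, lymphocyte and erythroid marker lists held no gene called by edgeR or DESeq2. The 4 tested cholangiocyte markers had higher treated means, with Sox9 at 3.01 ± 0.748 and 4.36 ± 0.658 CPM. The 4 lymphocyte markers summed to at most 3.31 CPM in any liver. The 3 erythroid markers had lower treated means, with Alas2 at 83.6 ± 11.8 and 79.1 ± 13.2 CPM.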
